A study of Mus musculus with 8 samples.

Results

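DNA double-stranded break (DSB) peaks in protein-coding exons numbered 406 of the 5671 peaks called by DSB-seq in Chd1 KO mouse embryonic stem (ES) cells, which is 7.16% (95% Wilson interval 6.52 to 7.86%). A peak belonged here when its summit fell in coding sequence of a GENCODE M1 transcript on mm9 and lay outside a window from 1000 bp upstream to 100 bp downstream of every annotated transcription start site (TSS). Of these peaks, 303 had their summit in a first coding exon and 103 in a later one. By the same rule the control list held 0 of 54 peaks, which allows a share of up to 5.56%, and none of the 406 peaks overlapped a control peak.

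DSB-seq labels free 3′ ends of DNA with biotin in fixed nuclei by terminal transferase, captures the labelled fragments and sequences them. The study compared an ES cell line with both Chd1 alleles deleted (Chd1 Δ/Δ, labelled Chd1 KO) with a control line that carries 1 floxed and 1 deleted allele (Chd1 fl/Δ, labelled WT), both grown in serum and LIF, with 2 DSB-seq libraries per genotype. Both lines thus share the deleted allele, and the KO line is a culture in which Chd1 was lost for good, so changes that came later in culture cannot be told apart from loss of Chd1. The replicates were combined before peaks were called, so each genotype has 1 list with no replicate error, and all intervals here cover counting error only. The ChIP-seq samples of the series were not analysed here. At the summit the KO peaks rested on 13 or more reads and the control peaks on 17 or more, over a background of at least 3.18 and 2.95 reads.

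Chd1 is a chromatin remodeler that binds the histone mark of active promoters and moves nucleosomes at the start of transcribed genes. In many mammalian genes, but not all, the promoter, the untranslated leader and often the first coding exon lie in 1 CpG island, a stretch rich in G, C and the dinucleotide CG. Later coding exons are mostly short, lie far from the TSS and hold few CG. Long runs of G and C can fold into structures other than the standard double helix, among them G-quadruplexes, in which runs of G on one strand stack in a square.

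The sequences around the highest peaks showed what these sites look like. They are given on the coding strand of mm9, 120 bp around the summit, with the longest unbroken run of G and C in capitals. Among first coding exons, Rbmxl2 at chr7:114353382-114353501 (plus strand) had the highest peak, Eif4e3 at chr6:99616562-99616681 (minus strand) had its run just past the exon, and Hoxa4 at chr6:52141241-52141360 (minus strand) is a homeobox gene. Clec2l and Chrna5, which ranked between them, are not shown because their windows include untranslated leader sequence.
Rbmxl2: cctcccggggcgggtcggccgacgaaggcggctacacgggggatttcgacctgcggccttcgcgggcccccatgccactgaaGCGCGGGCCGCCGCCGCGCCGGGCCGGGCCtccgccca
Eif4e3: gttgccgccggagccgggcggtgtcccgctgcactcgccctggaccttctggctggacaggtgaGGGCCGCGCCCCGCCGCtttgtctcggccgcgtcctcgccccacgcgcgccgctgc
Hoxa4: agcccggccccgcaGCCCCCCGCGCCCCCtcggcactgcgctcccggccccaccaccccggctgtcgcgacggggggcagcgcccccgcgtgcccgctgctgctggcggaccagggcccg
Among later coding exons, high peaks are shown for Tcfap2e at chr4:126412585-126412704 (minus strand) and Trio at chr15:27678314-27678433 (minus strand).
Tcfap2e: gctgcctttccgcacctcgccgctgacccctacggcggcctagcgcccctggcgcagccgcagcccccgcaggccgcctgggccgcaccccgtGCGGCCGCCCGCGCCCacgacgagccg
Trio: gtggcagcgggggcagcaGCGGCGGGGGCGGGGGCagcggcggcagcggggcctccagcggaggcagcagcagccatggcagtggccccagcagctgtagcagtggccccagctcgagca
In Rbmxl2 all 30 bases of the capital run were coding. In Eif4e3 none of the 17 were, since the exon ended before the run. Over all members with a run of at least 12 bp, the centre of the longest run was coding in 287 of 360, or 79.7% (75.3 to 83.6%). The peaks had a median width of 301 bp, of which a median of 84.7% was coding, and 162 of the 406 peaks were coding throughout.

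Coding sequence outside the TSS window held more peaks than its length gives, and most of that came from first coding exons. First coding exons took 5.34% of all peaks (4.79 to 5.96%) on 0.250% of the genome, a log2 enrichment of 4.42 (4.26 to 4.57). Later coding exons took 1.82% of peaks on 0.997% of the genome, a log2 enrichment of 0.86 (0.59 to 1.14). For comparison, the log2 enrichment was 4.12 in the TSS windows and 6.03 in untranslated leaders beyond them. Per length, first coding exons held 47.3 peaks per Mb (42.2 to 53.0) over a total of 6.40 Mb and later ones 4.04 per Mb (3.29 to 4.90) over 25.5 Mb. The ratio of these densities was 11.7 (9.35 to 14.8). It was 5.98 (4.60 to 7.80) without the peaks that overlap the TSS window and 1.81 (1.03 to 3.03) with 1 kb left out on both sides of each TSS. For the 5.98 the coding sequence beside the window was kept in the lengths, which by itself lowers the ratio.

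Peaks in first coding exons lay close to the TSS. Of the 303, 285 (94.1%, 90.8 to 96.2%) had their summit between the edge of the window and 1000 bp downstream of the nearest TSS, with 144 within 250 bp, 101 more within 500 bp and 40 beyond that. The median distance was 254 bp, and the median summit lay 148 bases into the coding sequence. With a median width of 309 bp, 156 of them (51.5%) overlapped the TSS window and 79 covered a TSS. Only 18 lay over 1 kb from every TSS. Peaks in later coding exons were spread along the gene body: 88 of 103 (85.4%, 77.4 to 91.0%) lay over 1 kb from every TSS, 5 overlapped the window, and the median distance from the nearest upstream TSS of their own gene was 7127 bp. Of the 103, 59 were in an inner coding exon and 44 in the last. Counted apart from that split, 24 of the 103 were in the second coding exon.

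**Figure D1:**
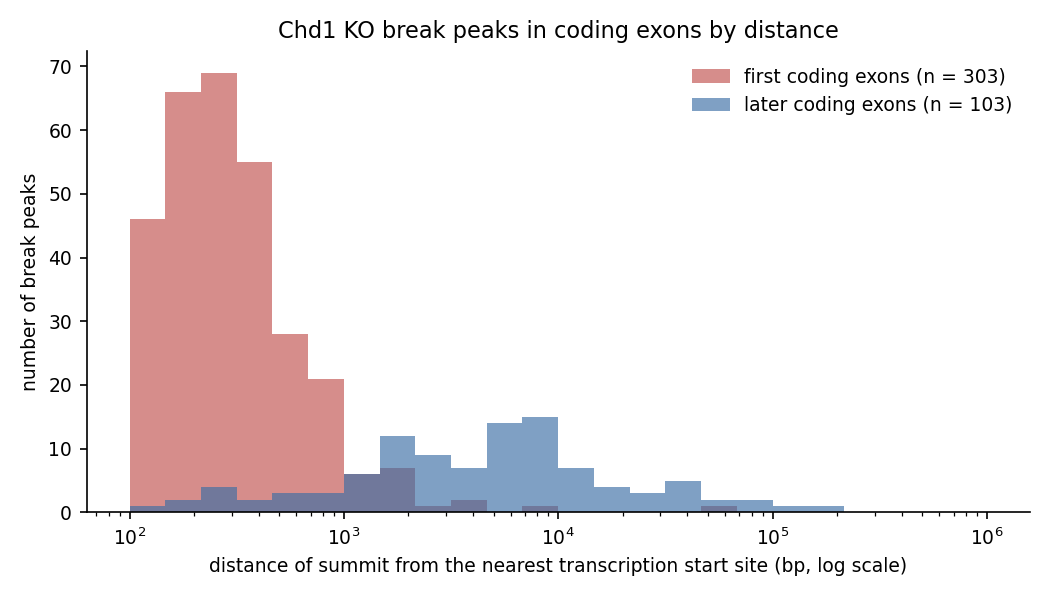
Number of Chd1 KO break peaks in coding exons (y axis) by distance of the summit from the nearest TSS, on a log scale in bp (x axis), for 303 peaks in first and 103 in later coding exons. First coding exon peaks pile up within 1000 bp, where 285 of them lie, and 88 of the later ones lie beyond.

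The edge of the window decided membership by a few bases. Just inside the list were Ttll11 at 101 bp, Mrps35 at 102 bp and Ppargc1b at 102 bp downstream of a TSS, with fold enrichments of 4.77, 4.29 and 3.31. Just left out were Dact1 at 100 bp, Lhx6 at 99 bp and Smc5 at 98 bp, with fold enrichments of 5.26, 4.46 and 3.77. On the upstream side the nearest members were Zfp575, Tlx1 and Dusp8, at -1475, -1551 and -1558 bp from a neighbouring TSS, while Icam5, Sympk and Ccdc9 at -882, -713 and -644 bp were left out. In all, 261 summits in coding sequence lay inside the window, 237 of them in first coding exons, so that 667 peaks had a coding summit when no window was applied.

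The heights of the peaks overlapped widely between the classes. Fold enrichment, which the authors' peak caller took as summit reads relative to background nearby, had a median of 4.37 (quartiles 3.95 to 4.78) in first coding exons and 4.30 (3.81 to 4.78) in later ones. The difference of the medians was 0.070 with an interval of -0.119 to 0.335. With the midpoint of a peak in place of its summit the difference was 0.294 (0.0244 to 0.446), an interval above 0. All 5671 peaks had a median of 4.56. The summit reads recovered from these values ranged from 14 to 37 in first coding exons, with a median of 20, and from 14 to 40 in later ones, with a median of 21. A height drawn from so few reads is imprecise, and the peak caller's threshold cuts off lower heights in both classes.

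Among first coding exons the highest peak was in Rbmxl2, a single-exon gene for an RNA-binding protein of the testis, with a fold enrichment of 7.23 from 34 reads. Clec2l, a C-type lectin gene, had 6.52 from 35 reads, Eif4e3, which codes for a cap-binding translation factor, 6.43 from 31 reads, and Chrna5, a nicotinic acetylcholine receptor subunit gene, 6.42 from 32 reads. Hoxa4 followed with 6.42 from 33 reads and Mnx1, a homeobox gene of motor neurons, with 6.31 from 27 reads. Zfp839 (6.25), Gm10638 (6.13), Khsrp (6.12), which codes for a splicing and mRNA decay factor, and Ube2o (6.08), a ubiquitin-conjugating enzyme gene, completed the 10 highest. These 10 had a GC content of 76.5 to 84.0% in the 200 bp around the summit, and all lay within 600 bp of a TSS.

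Among later coding exons the highest peak was in the second coding exon of Tcfap2e, an AP-2 transcription factor gene, with a fold enrichment of 6.99 from 38 reads at 839 bp from the TSS. Trio, a guanine nucleotide exchange factor gene, had 6.17 from 29 reads in exon 48 of 57, and Whsc1l1, a histone methyltransferase gene, 5.78 from 25 reads in exon 11 of 23. The next were 1500010J02Rik (5.68), Hfe2 (5.61), which codes for the iron regulator hemojuvelin, Lmtk3 (5.57), a kinase gene, Rims1 (5.50), a gene of the presynaptic active zone, Tmem132e (5.48) and 4930511I11Rik (5.36). The GC content of these peaks ranged from 60 to 81.5%, a wider and lower range than that of the 10 highest first coding exon peaks, and all of those named here but Tcfap2e lay over 1 kb from every TSS.

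**Figure D2:**
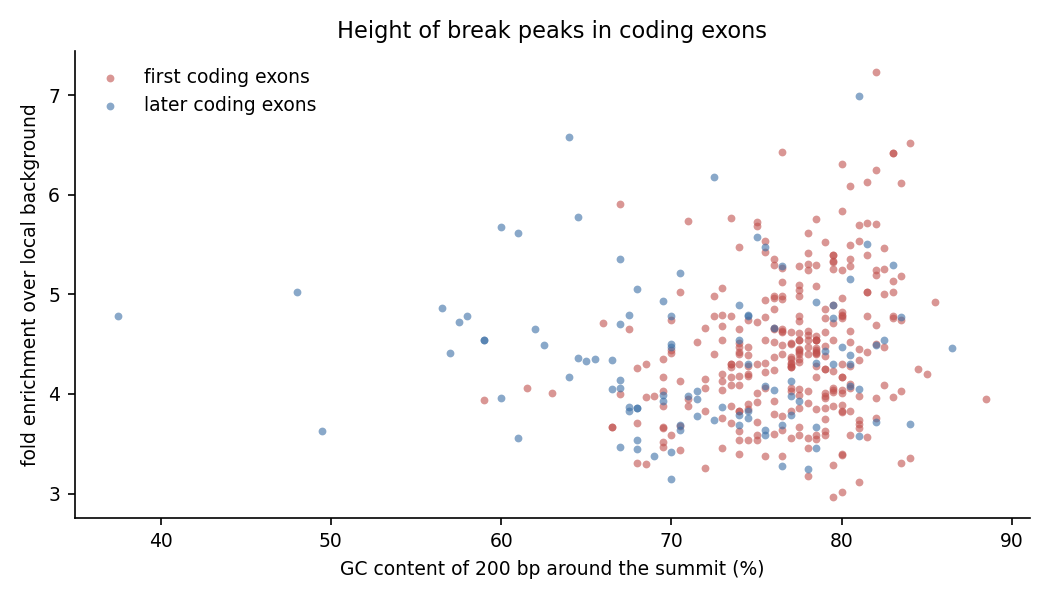
Fold enrichment of each of the 406 peaks over local background (y axis) against the GC content of the 200 bp around its summit in % (x axis), coloured by first or later coding exon. The heights of both classes overlap throughout, with medians of 4.37 and 4.30, while later coding exon peaks reach further to the left.

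Break peaks were found in coding exons of 398 genes, 1.78% of the 22359 protein-coding genes tested, against 10.3% with a peak in a TSS window of their own. Of the peaks, 3 lay in coding sequence of 2 overlapping genes. With each peak given to 1 gene, 385 genes held 1 coding exon peak, 9 held 2 and 1 held 3. The gene with 3 was Grin2d, which codes for an NMDA receptor subunit. Its peaks lay in the first coding exon (fold enrichment 3.96, 24 reads) and at 2 places in the 1305-bp last coding exon (3.72 and 3.45, from 22 and 20 reads). Dact3, Lmtk3, Lonrf1, Onecut3, Jund and Rbm15b also held both of their peaks in 1 long coding exon, of 913 to 2661 bp. Trio, Cacna1a, which codes for a P/Q-type calcium channel, and Ptprs, a receptor phosphatase gene, held theirs in different exons. None of Syngr1, Actb, Rpl3, Usp46, Rif1, Rfx2 or Mpp5, which the study tested one by one, held a peak in a coding exon outside the window.

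The gene of a coding exon peak also had a peak in a TSS window for 37 of the 406 peaks, 9.11% (6.68 to 12.3%), close to the 10.3% of all coding genes. The share was 18.2% with midpoints in place of summits and 20.4% when the window was drawn around TSSs of coding transcripts only. By class, it was so for 20 of 303 first coding exon peaks, 6.60% (4.31 to 9.97%), and for 17 of 103 later ones, 16.5% (10.6 to 24.9%), a difference of -9.90 percentage points (-18.6 to -3.08). A peak caller reports 1 summit for a stretch of signal, and the peaks of first coding exons often reached into the window, so the lower share there cannot be told apart from the merging of nearby signal.

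The 2 classes differed in base composition. The 200 bp around the summit had a median GC content of 77.5% (quartiles 74.2 to 80%) in first coding exons and 71.5% (67.0 to 77.2%) in later ones, a difference of 6.0 percentage points (2.96 to 7.58). GC content was at least 70% in 279 of 303 first and 63 of 103 later coding exon peaks. The ratio of observed to expected CG dinucleotides had a median of 0.963 and 0.826, against 0.345 and 0.317 over all 100-bp tiles of first and later coding sequence. On the coding strand, G exceeded C in 163 of 303 first coding exon peaks (53.8%, 48.2 to 59.3%) but in 36 of 103 later ones (35%, 26.4 to 44.6%).

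The difference in peak density between the classes was not detected at like GC content. Coding sequence outside the TSS window was cut into tiles of 100 bp, 75457 in first and 337475 in later coding exons, and each tile was given the GC content of 200 bp around its centre. Without regard to GC content, the odds that a tile held a summit were 13.2 times higher in first coding exons (10.6 to 16.5). Within strata of 5 percentage points of GC content, the Mantel-Haenszel odds ratio was 0.966 (0.746 to 1.25). Without the peaks that overlap the TSS window it was 0.483 (0.359 to 0.651). This left out 156 peaks of first and 5 of later coding exons. Their tiles stayed in as tiles without a peak, which by itself lowers the ratio, so no conclusion is drawn from it. Strata of distance from the nearest upstream TSS left an odds ratio of 6.12 (4.32 to 8.67), and strata of both gave 0.968 (0.634 to 1.48). Tiles are not replicates, so these intervals describe this 1 list. Within the same GC strata, tiles with an observed to expected CG ratio of at least 0.6 held summits with an odds ratio of 0.816 (0.375 to 1.78) against other tiles in first and 1.95 (1.09 to 3.46) in later coding exons.

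The share of tiles with a summit rose steeply with GC content in both classes. At 65 to 70% GC it was 0.310% in first and 0.423% in later coding exons. At 70 to 75% it was 1.84% and 1.72%, and at 75 to 80% it was 8.73% (7.47 to 10.2%) and 6.89% (4.63 to 10.1%). At 80% and above, 75 of 404 first coding exon tiles (18.6%, 15.1 to 22.6%) and 19 of 69 later ones (27.5%, 18.4 to 39.0%) held a summit. Below 55% GC none of 44920 first coding exon tiles did, with an upper Wilson bound of 0.00855%, and 5 of 237555 later ones did (0.00210%), so no difference was detectable there. No input library is named for the peak calls, and how evenly GC-rich fragments were recovered was not tested. In the control list, which held 54 peaks in all, no tile held a summit.

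**Figure D3:**
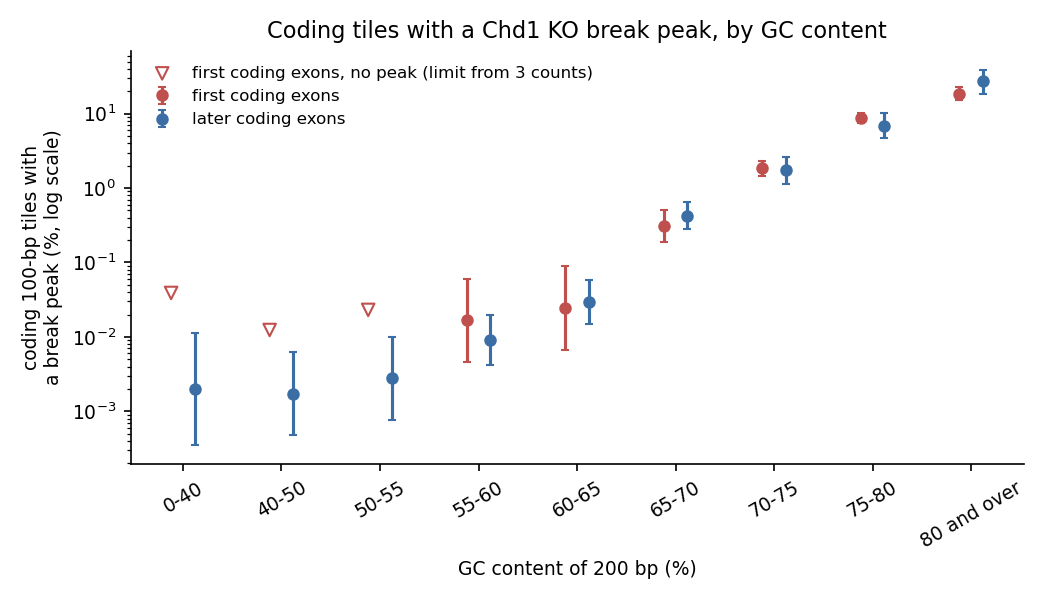
Share of 100-bp coding tiles with a Chd1 KO break peak summit in %, on a log scale (y axis), by GC content of the surrounding 200 bp in % (x axis), for first and later coding exons, with 95% Wilson intervals. Open triangles mark strata without a peak, at the limit that 3 counts allow. Both classes climb together, from 0.310% and 0.423% at 65 to 70% GC to 18.6% and 27.5% at 80% and above.

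The classes were also compared far from the TSS. Among tiles over 1 kb from the nearest upstream TSS, first coding exons still held summits more often when GC content was set aside (odds ratio 2.1, 1.26 to 3.49), but within GC strata they held them less often (0.546, 0.321 to 0.930). This rests on the few first coding exon peaks there. The 18 first coding exon peaks over 1 kb from every TSS had a median fold enrichment of 4.29 and a GC content of 78.0%, and the 88 later ones 4.32 and 71.5%.

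Later coding exons that held a peak were long. Of the 103 peaks, 54 (52.4%, 42.9 to 61.8%) lay in a coding exon of at least 500 bp, while 2.88% of all later coding exons are that long and 19.5% of later coding bases lie in them. Long later coding exons held 10.8 tiles with a summit per Mb and shorter ones 2.36, a ratio of 4.59 (3.04 to 6.94). Within GC strata the odds ratio for long exons was 1.15 (0.730 to 1.80). In first coding exons the order was opposite, with 27.5 per Mb in long and 93.9 per Mb in shorter ones, a ratio of 0.292 (0.230 to 0.371), and within GC strata the odds ratio was 0.971 (0.762 to 1.24).

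Unbroken runs of G and C marked the members more than they mark coding sequence at large. A run of at least 12 bp lay within 200 bp around the summit in 90.8% of first coding exon peaks (87.0 to 93.5%) and 82.5% of later ones (74.1 to 88.7%), against 9.35% and 1.71% of tiles. The difference between the classes was 8.23 percentage points (1.03 to 17.1). A run of at least 20 bp was there in 35.6% and 36.9%, with a difference of -1.25 points (-12.2 to 9.06), against 1.61% and 0.130% of tiles. Since GC-rich sequence holds runs more often, tiles with and without a run were also compared within GC strata. For a run of at least 20 bp the odds ratio of holding a summit was 1.34 (1.02 to 1.76) in first and 5.02 (3.04 to 8.29) in later coding exons.

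Seen from the runs, many of the longest ones in coding sequence lay under a break peak. Here any of the 5671 KO peaks counted over its full width, also peaks with a summit outside the coding exons or inside the TSS window. The shares are thus not of the 406 coding exon peaks alone. Of 3980 runs of at least 12 bp in first coding exons, 25.1% (23.8 to 26.5%) were under a KO peak, and of 2314 in later ones 9.12% (8.01 to 10.4%). For runs of at least 20 bp these shares were 38.3% of 494 (34.1 to 42.6%) and 28.8% of 139 (21.9 to 36.8%). Over 1 kb from the nearest upstream TSS they were 20.0% of 55 (11.6 to 32.4%) and 28.3% of 113 (20.8 to 37.2%). The control peaks covered none of the 6294 runs, but that list held only 54 peaks, so no limit per run is drawn from it.

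**Figure D4:**
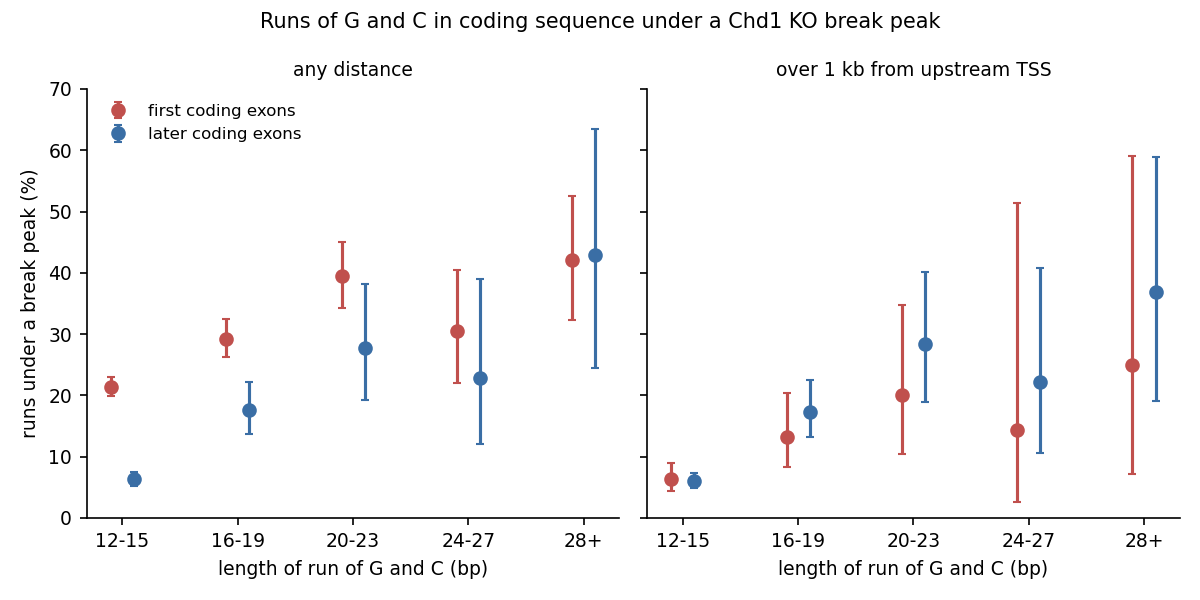
Share of runs of G and C in coding sequence that lie under a Chd1 KO break peak in % (y axis) by length of the run in bp (x axis), for first and later coding exons, with 95% Wilson intervals. Peaks of every class count, also those with a summit outside coding exons. The left panel holds runs at any distance and the right panel those over 1 kb from the nearest upstream TSS, where the classes overlap in every length class.

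Sequences with 4 runs of at least 3 G, separated by 1 to 7 bases, on either strand are those that can form a G-quadruplex by the usual rule. They were present in 79 of 303 first coding exon peaks (26.1%, 21.5 to 31.3%) and in 42 of 103 later ones (40.8%, 31.8 to 50.4%), a difference of -14.7 percentage points (-25.4 to -4.31). In later coding exons they lay on the template strand in 27 peaks and on the coding strand in 17. Of all coding tiles 3.29% held one. Within GC strata the odds ratio of a tile with one was 1.03 (0.776 to 1.36) in first and 2.71 (1.77 to 4.15) in later coding exons.

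Taken over both classes, coding exon peaks held this motif less often than peaks elsewhere did. It was in 29.8% of them, in 50.6% of peaks in the TSS windows (difference -20.8 points, -25.5 to -15.8), in 55.2% of intronic peaks (-25.4, -30.4 to -20.1) and in 37.8% of peaks in untranslated leaders (-8.03, -15.1 to -0.976). Later coding exon peaks, at 40.8%, held it less often than intronic peaks (-14.4, -23.8 to -4.46), while their differences from peaks in the TSS windows (-9.82, -19.0 to 0.036), in intergenic sequence (-9.27, -18.8 to 0.855) and in leaders (2.94, -7.68 to 13.97) had intervals that hold 0. Within GC strata the odds ratio against peaks in the TSS windows was 0.420 (0.332 to 0.532), and against intronic peaks 0.300 (0.231 to 0.391). For later coding exon peaks alone these were 0.632 (0.408 to 0.977) and 0.399 (0.252 to 0.632). Against intergenic peaks their odds ratio was 0.421 (0.256 to 0.692), below 1 at like GC content, and against peaks in leaders 0.888 (0.510 to 1.55). For runs of G and C of at least 20 bp the odds ratio of peaks of both classes against peaks in the TSS windows was 0.932 (0.739 to 1.18).

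Simple repeats common in peaks of introns and intergenic sequence were rare in coding exon peaks. CA repeats of at least 20 bp were in 0 of 406 coding exon peaks, with an upper Wilson bound of 0.937%, against 15.3% of intronic and 25.3% of intergenic peaks. They are rare in coding sequence altogether, in 0.235% of tiles. Alternating CG of at least 10 bp was in 7 of the 406 peaks (1.72%), against 18.0% of intronic and 28.5% of intergenic peaks and 0.0373% of coding tiles. Within GC strata the odds ratio was 0.814 (0.312 to 2.13) against intronic and 2.19 (0.353 to 13.6) against intergenic peaks, and 0.910 (0.278 to 2.98) for coding tiles with such a stretch against those without. Tandem triplets made of G and C only were in 21 first and 3 later coding exon peaks, 5.91% in all (4.00 to 8.64%), against 0.103% of tiles. Within GC strata the odds ratio of a tile with one was 0.867 (0.541 to 1.39) in first coding exons and 3.88 (1.29 to 11.7) in later ones, the latter from 4 tiles with a summit, and 0.907 (0.591 to 1.39) over both.

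A triplet repeat read in frame is a run of 1 amino acid. The codons of alanine, glycine and proline begin with G or C in both leading positions, so runs of these residues are GC-rich. A run of at least 5 identical residues lay within 33 codons of the summit in 111 of 406 peaks (27.3%, 23.2 to 31.9%), against 2.93% of coding tiles, and the share was 26.7% in first and 29.1% in later coding exons. For residue runs the tiles are another set than above. They are 350566 stretches along the spliced longest coding sequence of each gene, with the TSS window not left out. Glycine runs were near 39 peaks (9.61%, against 0.281% of tiles), alanine runs near 34 (8.37%, against 0.391%) and proline runs near 30 (7.39%, against 0.467%). Runs of glutamate, the most common in coding tiles at 0.543%, were near 3 peaks (0.739%, 0.252 to 2.15%), and glutamine runs near 2 (0.493%).

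Peaks and these spliced tiles were also compared within strata of the GC content of the coding window. Where the spliced window had a GC content of 75% or more, 71 of 212 peaks (33.5%, 27.5 to 40.1%) and 31.4% of tiles (29.6 to 33.3%) lay near a run. At 70 to 75% the shares were 28 of 68 (41.2%, 30.3 to 53.0%) and 17.4% (16.4 to 18.6%), and at 60 to 70% they were 9 of 85 (10.6%, 5.67 to 18.9%) and 6.17% (5.96 to 6.40%). Below 60% they were 3 of 41 (7.32%, 2.52 to 19.4%) and 1.97% (1.92 to 2.02%). The intervals of peaks and tiles overlapped at 60 to 70% and at 75% or more, and the peaks lay above the tiles in the other strata. The stratum below 60% is wide, so its peaks and tiles need not be alike in GC content.

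Proline runs near a summit reached 12 codons, and the longest codon runs were of alanine and glycine. They are shown on the coding strand of mm9 with 30 bases on each side and the run in capitals, for 3 members chosen by the length of the run: 2810030E01Rik at chr2:17969214-17969327 (minus strand), Pou3f3 at chr1:42754522-42754629 (plus strand) and Dusp8 at chr7:149267999-149268112 (minus strand).
2810030E01Rik: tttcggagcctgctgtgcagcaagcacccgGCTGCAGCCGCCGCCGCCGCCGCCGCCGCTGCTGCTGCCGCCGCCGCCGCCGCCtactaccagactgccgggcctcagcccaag
Pou3f3: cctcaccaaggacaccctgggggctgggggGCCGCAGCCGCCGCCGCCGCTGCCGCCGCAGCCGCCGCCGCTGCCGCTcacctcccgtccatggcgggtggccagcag
Dusp8: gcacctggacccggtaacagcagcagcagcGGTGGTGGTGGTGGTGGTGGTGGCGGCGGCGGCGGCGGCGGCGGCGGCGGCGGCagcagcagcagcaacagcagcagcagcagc
In Pou3f3, a POU homeobox gene of the brain, the summit lay 30 bp from a run of 16 alanines (4.38, 23 reads). In 2810030E01Rik it lay 70 bp from a run of 18 alanines (4.30, 17 reads), and in Dusp8, a MAP kinase phosphatase gene, 68 bp from a run of 18 glycines (3.76, 16 reads).

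The share of genes with a coding exon peak was larger in the forkhead, Hox, other homeobox, Sox and helix-loop-helix lists than over all genes. Against the 1.78% of all coding genes, forkhead genes had them in 8 of 43 (18.6%, 9.74 to 32.6%), Hox cluster genes in 5 of 40 (12.5%, 5.46 to 26.1%) and other homeobox genes in 21 of 190 (11.1%, 7.34 to 16.3%). Sox genes had them in 2 of 20 (10%, 2.79 to 30.1%), Sox12 (4.36) and Sox21 (3.64), and the basic helix-loop-helix genes listed in 4 of 49 (8.16%, 3.22 to 19.2%). The forkhead peaks were led by Foxo6 (5.15), in a later coding exon, and by Foxi3 (4.98), Foxf2 (4.68) and Foxl2 (4.63) in first coding exons. Among Hox genes Hoxa4 (6.42), Hoxd4 (4.05), Hoxd9 (4.03) and Hoxd8 (3.83) had theirs in the first coding exon, and Hoxb3 (3.78) in a later one. Mnx1 (6.31), Cdx1 (5.24), Tlx1 (4.83) and Onecut3 (4.79) led the other homeobox genes, and Neurog2 (4.98), Bhlhe22 (4.54), Scx (3.93) and Ptf1a (3.82) were the helix-loop-helix genes. A TSS window held a peak in 27.9% of forkhead and 15% of Sox genes. It did so in 12.6% of other homeobox, 8.16% of helix-loop-helix and 7.5% of Hox genes, against 10.3% of all coding genes. The median fold enrichment was 4.43 for forkhead, 4.03 for Hox and 4.35 for other homeobox peaks, close to the 4.35 of all coding exon peaks. These lists were chosen with results of these data known, and the GC content of their exons was not taken into account.

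Other lists lay nearer to the share of all genes. Chromatin modifier and remodeler genes had coding exon peaks in 7 of 203 (3.45%, 1.68 to 6.95%), with Whsc1l1 (5.78), Wbp7 (5.36), Sirt1 (5.24) and Prdm13 (5.21) the highest, while 23.6% of them had a peak in a TSS window. Potassium and calcium channel genes had them in 4 of 126 (3.17%, 1.24 to 7.88%), led by Cacna1a (4.89), Cacna2d3 (4.31), Kcnt1 (4.17) and Hcn2 (3.67). Zfp genes, which code for zinc finger proteins, had them in 5 of 368 (1.36%, 0.582 to 3.14%), led by Zfp839 (6.25), Zfp560 (5.02), Zfp575 (4.78) and Zfp36l2 (3.78). Klf2 (4.40) was the 1 gene of 38 of the Zic, Gli, Klf and Sp transcription factor families (2.63%, 0.466 to 13.5%). Pcdh15 (4.54) was the 1 of 36 protocadherins and Col6a2 (4.33) the 1 of 43 collagens.

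Coding exon peaks were absent from 3 lists. None of 84 cytosolic ribosomal protein genes, 67 replication-dependent histone genes or 1087 olfactory receptor genes held one, which allows up to 3.57%, 4.48% and 0.276%. Only the limit of the olfactory receptor genes lies below the 1.78% of all coding genes, so for the other lists a lower share was not detectable. Of the first coding exon peaks, 54 of 303 (17.8%, 13.9 to 22.5%) lay in genes with 1 coding exon.

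**Figure D5:**
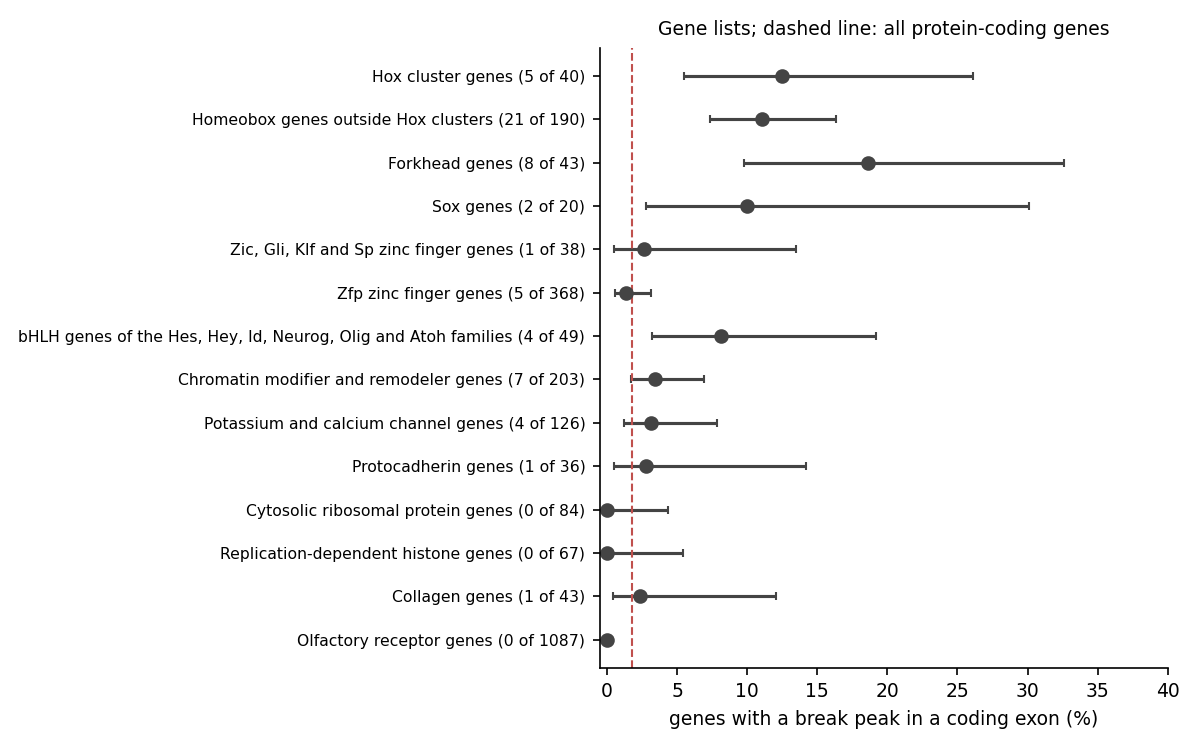
Share of the genes of each list with a Chd1 KO break peak in a coding exon in % (x axis), with 95% Wilson intervals and the number of genes in brackets. The dashed line marks the 1.78% of all protein-coding genes. Forkhead, Hox, other homeobox, Sox and helix-loop-helix genes lie to the right of it with their whole interval.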

How the data were processed

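DSB-seq libraries came from 2 replicates each of Chd1 KO and control ES cells. Bowtie2 was used by the authors to place reads on mm9. Mapping qualities under 13 and duplicate positions were dropped. Both replicates were then merged, and MACS2 was run with a 200-bp extension and a q-value threshold of 0.05, followed by a blacklist filter. The deposited lists give the fold enrichment (ratio) at the summit, its −log10 p-value and −log10 q-value, and the summit. No total read number is in them. Summit read numbers were solved for from the ratio and the Poisson p-value with SciPy.

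Summits were assigned with GENCODE M1 (NCBIM37, the same build as mm9). A summit counted as first coding exon where any coding transcript has it there. Shares have Wilson intervals, differences of shares Newcombe, densities exact Poisson and density ratios conditional exact binomial intervals, all at 95%. Differences of medians have intervals from order statistics. Motifs were searched on both strands in 200 bp around the summit: runs of G and C of 12 or 20 bp, CA repeats of 20 bp, alternating CG of 10 bp, 5 or more copies of a triplet, and 4 runs of at least 3 G with loops of 1 to 7 bases. Amino acid runs were read by translating the annotated coding sequence, in place of the RefSeq proteins that were planned. The functions were tested on simulated data. Analysis used Python 3.11.15, NumPy 2.4.6, SciPy 1.17.1, pandas 2.3.3 and pysam 0.24.0.

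The members and the gene lists were chosen with earlier results of these data known. Genes named are the 10 highest of each class, genes with 2 or more peaks, up to 4 of each list, genes the study tested singly and members at the edges of the window; the 3 genes with codon runs were added by the length of the run after their values were seen. Some of these genes and sequences are not reported here. Odds ratios of sequence features within GC strata, those over 1 kb from a TSS or with both strata, and the density by exon length were also added after first values were seen. Alternatives of the cutoff, summit, window and exon definition are given below.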

Additional observations from a re-analysis of the deposited data

How the results depend on the processing

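No paired analysis was possible because the replicates were combined before peaks were called and each genotype has 1 list; for the same reason no replicate could be left out. Alternatives that were planned changed the q-value cutoff, the p-value cutoff to that of the weakest control peak, the fold enrichment, the position of a peak, the TSS window, the definition of a first coding exon, the chromosomes and the counting of near peaks. The use of transcripts with an annotated start codon and the removal of peaks that overlap the TSS window were chosen after seeing the data. No difference or ratio that excluded 0 or 1 turned its direction. With a fold enrichment of at least 5 there were 76 coding exon peaks, 78.9% of them in first coding exons, with a density ratio of 15.0, a median GC difference of 8.0 points (-1.12 to 15.6), a run of 20 bp or more in 51.3% and a promoter peak in the same gene in 5.26%. With 1 kb left out on both sides of a TSS there were 106 peaks, 17.0% in first coding exons, with a density ratio of 1.81, an odds ratio within GC strata of 0.529 (0.311 to 0.901) and a promoter peak in 15.1%. With no window there were 667 peaks, 81.0% in first coding exons, with a promoter peak in 37.0%. Of these, 261 had their summit inside the window and can be the promoter peak themselves, so the 37.0% does not count separate peaks only. Without the peaks that overlap the window, and with the same coding sequence, there were 245, 60% in first coding exons, with a density ratio of 5.98, an odds ratio of 0.483 (0.359 to 0.651) and a promoter peak in 12.7%. Keeping the sequence beside the window by itself lowers both of these ratios. The promoter share was 18.2% with midpoints and 20.4% with TSSs of coding transcripts only, where a peak's own summit can also count as the promoter peak. The share of first coding exons and the ratios thus depend on the window and on the peaks next to it. The fold enrichment difference was between -0.095 and 0.294, and its interval held 0 except with midpoints (0.0244 to 0.446). Depth limits the heights, at 14 to 40 reads per summit, and an unlisted exon may hold breaks below the cutoff.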

Other observations

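Among coding exon peaks, 10 of 406 (2.46%, 1.34 to 4.47%) had a GC content under 60% in the 200 bp around the summit, and 9 of these were in later coding exons. The lowest was Casd1, at 37.5% GC and with a fold enrichment of 4.78 from 19 reads. Next were Zfp560 at 48.0% (5.02 from 21 reads) and Gm101 at 49.5% (3.63 from 16 reads). In all 3 the peak was mostly outside coding sequence or close to evenly split, with 44.0%, 26.0% and 51.7% of its width coding. These genes were chosen after their values were seen.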
